A study of Penicillium oxalicum with 24 samples.

Results

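In the filamentous fungus *Penicillium oxalicum*, 57 of the 9832 genes in the deposited gene table were induced by cellulose in the wild-type strain and stayed at 0.8 times that level or more when the activator gene *clrB* was deleted. They were chosen by expression values. The mean RPKM (reads scaled to gene length and to the mapped reads of the library) of a gene over the 3 libraries of wild-type on cellulose had to be at least 10, and at least 2 times the means without carbon and on glucose. Its mean in Δ*clrB* on cellulose had to be at least 0.8 times the wild-type mean, and its mean in Δ*amyR* below 1.7 times that mean. The steps left 172 genes induced over both other media, 77 that also met the Δ*clrB* limit and 62 that met every limit, and 5 of 8 genes left out by name were among those 62. Every value of the wild-type, Δ*clrB* and Δ*amyR* libraries was therefore used in the choice and is given as a description, with no test.

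RNA was sequenced from 24 cultures in Vogel's medium, 3 for each of 8 groups, all first grown in 2% glucose for 22 h. The wild-type strain 114-2 was then held for 4 h without carbon, on 2% glucose or on 2% cellulose, and 5 mutants were held for 4 h on 2% cellulose. The mutants were Δ*clrB*, Δ*creA*, Δ*amyR*, the Δ*creA*-Δ*clrB* double deletion, and Δ*creA-gpdA*(p)::*clrB*, a *creA* deletion in which *clrB* is driven by the *Aspergillus nidulans gpdA* promoter, a promoter used for constitutive expression. A step of 2 h without carbon stood before the last one. The methods describe it for all cultures, while the labels of the wild-type without carbon do not mention it. By the methods, the *creA* deletion cassette with a hygromycin marker was put into the wild-type, into Δ*clrB* and into a *gpdA*(p)::*clrB* strain. The mutants of the central regulators were made in wild-type 114-2, not in the Δ*pku70* strain that served for the larger deletion collection. The labels name no separate lines within a strain.

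ClrB is a zinc cluster transcription factor whose relatives in other filamentous fungi activate cellulase genes when cellulose or its breakdown products are sensed. CreA is the zinc finger repressor of carbon catabolite repression, which keeps genes for the use of poorer carbon sources low, and AmyR activates genes of starch breakdown. Xylan, the main hemicellulose that accompanies cellulose in plant cell walls, is cut by endo-xylanases and β-xylosidases, its arabinose side chains are removed by α-L-arabinofuranosidases, and the released pentoses enter metabolism through sugar alcohols and D-xylulose. In *Aspergillus*, xylanase and pentose genes are known as targets of a different activator, XlnR.

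Gene-assigned reads averaged 7925318 per library (SD 401887 over the 24), and the deepest library had 1.23 times the reads of the shallowest. The *clrB* gene, PDE_05999, had 1898 to 2049 reads per Δ*creA* library, 1 to 3 per Δ*clrB* or Δ*creA*-Δ*clrB* library and 6920 to 10982 per Δ*creA-gpdA*(p)::*clrB* library, and *creA*, PDE_03168, had at most 2 reads in any library without *creA*, matching the labels. RNA came from whole mycelium, so fewer cells of a kind and less RNA per cell cannot be told apart. Counts were scaled by TMM, which equalises the bulk of genes. RPKM is scaled to library totals, and on that scale the median gene was 0.27 lower in Δ*creA-gpdA*(p)::*clrB* than in Δ*creA* (log2), against 0.006 higher after TMM, so RPKM levels and fitted fold changes are not interchangeable there. The same holds against wild-type on cellulose, where the median gene was, in log2(mean RPKM + 1), 0.16 lower in Δ*clrB*, 0.41 lower in Δ*creA*, 0.38 lower in Δ*creA*-Δ*clrB*, 0.65 lower in Δ*creA-gpdA*(p)::*clrB* and 0.38 lower in Δ*amyR*.

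The 57 genes are a mixed group. By the descriptions and the KEGG and GO terms that accompany the study's gene lists, 8 are enzymes of xylan or arabinan breakdown. A further 5 act in the use of pentoses or other sugars, 3 are transporters and 4 belong to the breakdown of aromatic compounds. Another 3, which are neighbours, carry terms of an acetyl-CoA synthetase and of terpenoid synthesis. Of the rest 7 carry other terms, 21 are hypothetical proteins without a term and 6 are not annotated in the sources used. The fixed list of 18 cellulase genes holds none of the 57, but this follows in part from the genes left out by name. Among those, PDE_09267 met every limit, with means of 677 RPKM in wild-type on cellulose and 763 in Δ*clrB*. Levels on cellulose spanned from 10.3 RPKM for PDE_00015 to 2391 for PDE_07936, with a median of 86.4. The ratio of the cellulose mean to the mean without carbon had a median of 3.25 over the 57 genes, and that to the mean on glucose a median of 16.8. PDE_03571, annotated as a sugar transporter of the major facilitator family, had the highest ratios, 108 and 1467 times. All 57 genes passed the filter on low values, which their level on cellulose made certain. On glucose PDE_07173 and PDE_09178 had at most 3 reads in each library, so no ratio is given for either.

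The limits cut through a continuous range of values. Just inside the limit on wild-type level were PDE_00015 at 10.3 and PDE_00665 at 12.2 RPKM, with PDE_07673 at 9.78 and PDE_01686 at 8.61 just outside. The cellulose to no-carbon ratio was 2.04 for PDE_02252 and PDE_01718, and 1.98 for PDE_03075 and 1.96 for PDE_06635, which were left out. Against glucose PDE_06067 and PDE_00592 both had 2.07, and PDE_08039 with 1.85 and PDE_07202 with 1.56 fell short. The Δ*clrB* to wild-type ratio was 0.824 for PDE_01041 and 0.832 for PDE_00015 inside the limit, and 0.790 for PDE_04474 and 0.753 for PDE_02514 outside. The Δ*amyR* to wild-type ratio was 1.66 for PDE_03988 and 1.61 for PDE_07936 inside, and 1.97 for PDE_07897 and 2.00 for PDE_07334 outside.

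**Figure D1:**
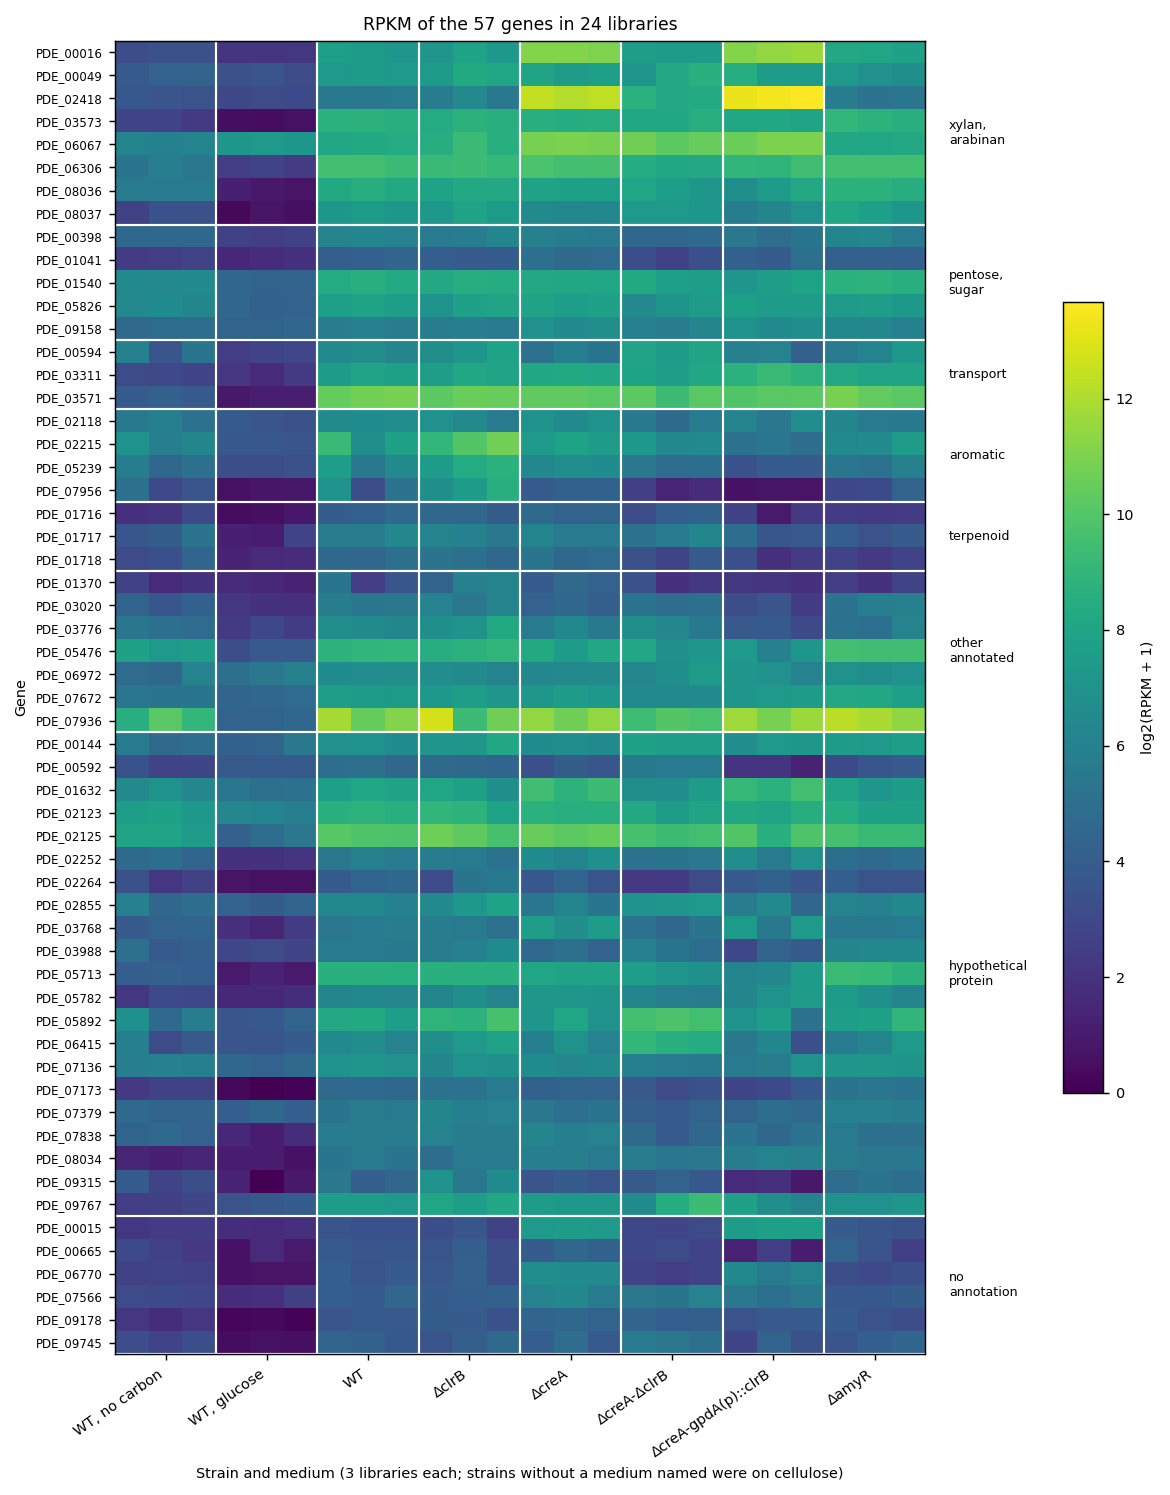
Level of the 57 genes (rows, grouped by annotation) in the 24 libraries (columns, 3 per group), as log2(RPKM + 1) by colour. The 3 libraries on glucose are darkest for most genes, and PDE_00016, PDE_02418 and PDE_06067 brighten in Δ*creA*, where PDE_02418 reached a mean of 4969 RPKM against 46.4 in wild-type on cellulose.

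Among the genes chosen, the 3 Δ*clrB* libraries lay above all 3 wild-type libraries on cellulose for 16 genes and below them for 0 genes, with the other 41 overlapping, on counts scaled by TMM. Over all 9176 genes tested, 14.3% lay above and 14.1% below, and since the rule fixed the Δ*clrB* level nothing is read from this count. In Δ*amyR* 23 of the 57 genes lay above wild-type, 5 lay below and 29 overlapped. Of the 9176 genes tested 2115 (23.0%) lay above and 2139 (23.3%) below. The rule also kept the Δ*amyR* mean below 1.7 times the wild-type mean, so nothing is read from the Δ*amyR* counts either. The largest Δ*clrB* to wild-type ratio was that of PDE_07956, annotated as a salicylate hydroxylase, 4.13 times, but its wild-type libraries themselves ran from 8.62 to 124 RPKM. The 5 genes below wild-type in every Δ*amyR* library included the neighbours PDE_01716, PDE_01717 and PDE_01718, where the mean RPKM went from 19.1 ± 4.44 (SD, n = 3) to 4.10 ± 0.150, from 61.9 ± 13.9 to 13.5 ± 3.03 and from 25.8 ± 5.60 to 5.07 ± 1.04.

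Once *creA* was absent, the 57 genes did not respond to the loss of *clrB* as 1 block. The xylanase PDE_02418, the arabinofuranosidase PDE_00016 and the unannotated PDE_00015 and PDE_06770 fell most in Δ*creA*-Δ*clrB* against Δ*creA*, the sugar transporter PDE_03571 and the xylanase PDE_03573 did not pass, and a transporter gene, PDE_00594, rose with several hypothetical genes. The Δ*creA*-Δ*clrB* and Δ*creA* libraries took no part in the choice, and they were compared by edgeR's quasi-likelihood test, with a call at a Benjamini-Hochberg adjusted p under 0.05 and a log2 fold change beyond 1 in either direction. Fold changes are given on the log2 scale ± SE, with n = 3 libraries in each group. Of the 57 genes 21 (36.8%) were lower in Δ*creA*-Δ*clrB*, against 7.68% of all genes tested, and 8 (14%) were higher, against 9.45%. The remaining 28 did not pass. The median log2 fold change of the 57 genes was -0.73, against 0.02 for all genes. Of the 95 genes that met the same induction limits but fell below 0.8 times wild-type in Δ*clrB*, 87 (91.6%) were lower in Δ*creA*-Δ*clrB*, with a median of -2.26.

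The Δ*creA-gpdA*(p)::*clrB* libraries, also unused in the choice, were compared with the same Δ*creA* libraries. Here 11 of the 57 genes were lower (19.3%, against 4.12% of all genes), 2 were higher (3.51%, against 3.27%) and 44 did not pass. The median was -0.24 for the 57 genes and 0.006 for all genes. Over all genes the call split was 378 lower and 300 higher after TMM and 778 lower and 155 higher when library totals set the scale, under which 16 of the 57 genes were lower and 1 was higher. The 2 comparisons share the Δ*creA* libraries, so their values are given side by side and no overlap is read from them.

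**Figure D2:**
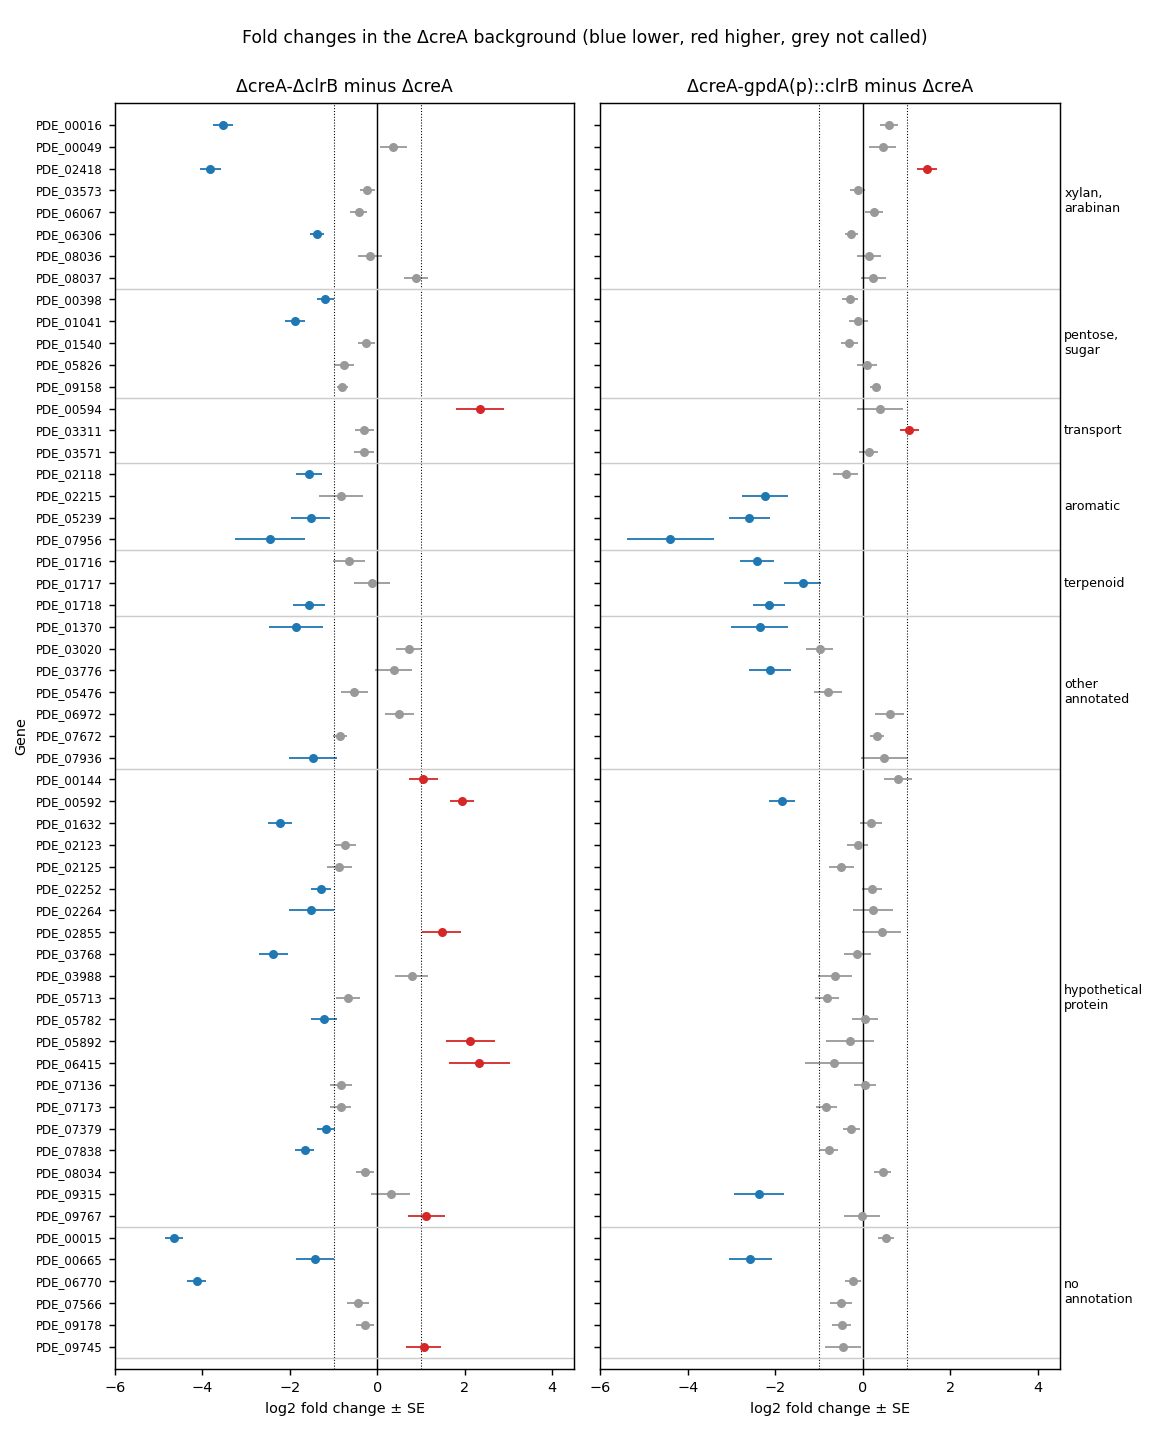
Log2 fold change ± SE of each of the 57 genes (rows, grouped by annotation) in Δ*creA*-Δ*clrB* (left) and Δ*creA-gpdA*(p)::*clrB* (right), both against Δ*creA*, from edgeR on 3 libraries per group. Blue points were called lower and red points higher, grey points did not pass, and dotted lines mark log2 fold changes of -1 and 1. On the left 21 points are blue, led by PDE_00015 at -4.65, and on the right 11 are blue, led by PDE_07956 at -4.40.

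Against wild-type on cellulose, where no test applies because the wild-type level chose the genes, the fitted Δ*creA* level was more than 2 times higher for 14 genes and more than 2 times lower for 1, against 7.89% and 7.37% of all genes. The 1 lower gene was PDE_07956. The largest increases were in PDE_02418 (log2 difference 7.21), PDE_00015 (4.52), PDE_00016 (4.13), PDE_06770 (3.27) and PDE_06067 (3.08). In Δ*creA*-Δ*clrB* against Δ*creA*, a comparison that shares the Δ*creA* libraries, the values of these 5 genes in the same order were -3.82, -4.65, -3.53, -4.13 and -0.43. Set against Δ*clrB* on cellulose, the Δ*creA*-Δ*clrB* level was more than 2 times higher for 6 of the 57 genes and more than 2 times lower for 15. Of the 9176 genes tested 1019 (11.1%) and 902 (9.83%) were so. A high Δ*clrB* level was part of the choice, which favours lower values here, so nothing is read from these counts.

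Of the xylan and arabinan enzymes, 8 of the 26 on the fixed list were among the 57 genes, and 3 of these 8 fell in Δ*creA*-Δ*clrB*. The other 18 on the list, which missed a limit or were left out by name, had 11 lower calls, against 7.68% of all genes. No gene of either group was called higher. The 5 genes of any kind that met every limit but were left out by name had 0 lower calls. The median log2 fold change was -0.33 for the 8 and -1.53 for the other 18, against 0.02 for all genes. Under constitutive *clrB* the 8 had 1 higher call, against 3.27% of all genes, and a median of 0.25, against 0.006. The other 18 had 3 higher calls there and a median of 0.09. The endo-β-xylanase PDE_02418 was low outside the *creA* deletions, with 44.2, 43.8 and 51.1 RPKM in wild-type on cellulose and 54.1, 86.3 and 42.7 once *clrB* was deleted. It reached 5356, 4387 and 5162 in Δ*creA*, 429.5, 307 and 323 in the double deletion and 9667, 10866 and 12985 in Δ*creA-gpdA*(p)::*clrB*. The double-deletion libraries thus lay far below Δ*creA* and still above every wild-type library. The gene fell in Δ*creA*-Δ*clrB* (log2 fold change -3.82 ± 0.25, edgeR adjusted p = 4.28e-10) and rose in Δ*creA-gpdA*(p)::*clrB* (log2 fold change 1.46 ± 0.23, edgeR adjusted p = 1.71e-04). This xylanase alone took 119517 reads summed over the 3 Δ*creA* libraries, and 280848 over those of the strain with constitutive *clrB*.

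The α-L-arabinofuranosidase PDE_00016, which trims arabinose from xylan or arabinan, shared much of this pattern. It had 206, 170.4 and 143 RPKM in wild-type on cellulose and 136, 242 and 155 in Δ*clrB*. Without *creA* it stood at 2215, 2270.4 and 2103 RPKM, and without both regulators at 201, 186 and 188. In RPKM the double deletion lay within the range of wild-type on cellulose, whereas after TMM all 3 of its libraries lay above wild-type (log2 difference 0.60). It fell against Δ*creA* (log2 fold change -3.53 ± 0.22, edgeR adjusted p = 3.26e-10). In Δ*creA-gpdA*(p)::*clrB* it had 2262, 2816 and 3117 RPKM, with a difference from Δ*creA* under the fold limit (0.60 ± 0.20). Its neighbour by locus number, PDE_00015, which the sources used do not annotate, went from 11.2, 9.82 and 9.80 RPKM in wild-type on cellulose to 168, 184 and 162 in Δ*creA*, 6.81, 6.29 and 7.61 in the double deletion and 183, 216 and 209 with constitutive *clrB*. After TMM the double-deletion libraries of PDE_00015 overlapped those of wild-type on cellulose (log2 difference -0.13). Its fall in Δ*creA*-Δ*clrB* was the largest of the 57 genes (log2 fold change -4.65 ± 0.21, edgeR adjusted p = 1.46e-12). PDE_00014, the gene before it in the numbering and an endo-xylanase on the list, is not among the 57 since it had 0 reads in wild-type on cellulose. Its mean was 1.99 RPKM in Δ*creA*, 0.0263 in the double deletion and 15.7 with constitutive *clrB*.

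Another arabinofuranosidase among the 57 genes, PDE_06067, had 279.7, 316 and 341 RPKM in wild-type on cellulose and 369.6, 638 and 376 in Δ*clrB*. The Δ*creA* libraries gave 1889, 1990.2 and 1837 RPKM and those of the double deletion 1679.7, 1179.7 and 1418. All 3 double-deletion libraries lay below the lowest Δ*creA* library yet well above the highest wild-type library, and the difference from Δ*creA* did not pass (log2 fold change -0.43 ± 0.20, edgeR adjusted p = 0.0934). It also had the lowest cellulose to glucose ratio of the 57 genes, with 144, 162 and 147 RPKM on glucose. Its levels in Δ*creA* overlapped those under constitutive *clrB*.

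Of the β-xylosidases, which release xylose from short xylan fragments, only PDE_06306 was called in Δ*creA*-Δ*clrB*. It was the most abundant of them in wild-type on cellulose, with 750.2, 735 and 628 RPKM, and had 888, 751 and 794 in Δ*creA* and 350.5, 294 and 299 in Δ*creA*-Δ*clrB*. All 3 double-deletion libraries were lower (log2 fold change -1.38 ± 0.16, edgeR adjusted p = 2.32e-06). PDE_08037 had 93.5, 79.5 and 81.9 RPKM in Δ*creA* and 164, 164 and 145 in Δ*creA*-Δ*clrB*, where its level was higher in every library but by less than the fold limit (0.88 ± 0.28). PDE_00049 had 255, 182 and 208 RPKM in Δ*creA* and 138, 308 and 403 in Δ*creA*-Δ*clrB*. PDE_08036, annotated as both β-xylosidase and arabinofuranosidase, had 232, 225 and 212 and, in the double deletion, 257, 192 and 149. The libraries of both genes overlapped and neither passed (adjusted p = 0.365 and 0.655 by edgeR). The endo-xylanase PDE_03573 did not pass in Δ*creA*-Δ*clrB* (-0.23 ± 0.17). Its means over the cellulose groups ran from 277 RPKM under constitutive *clrB* to 455 without *amyR*, against 0.424, 0.363 and 0.511 RPKM in the libraries on glucose. The libraries under constitutive *clrB* lay below wild-type on cellulose in RPKM only. After TMM they overlapped it (log2 difference 0.18).

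**Figure D3:**
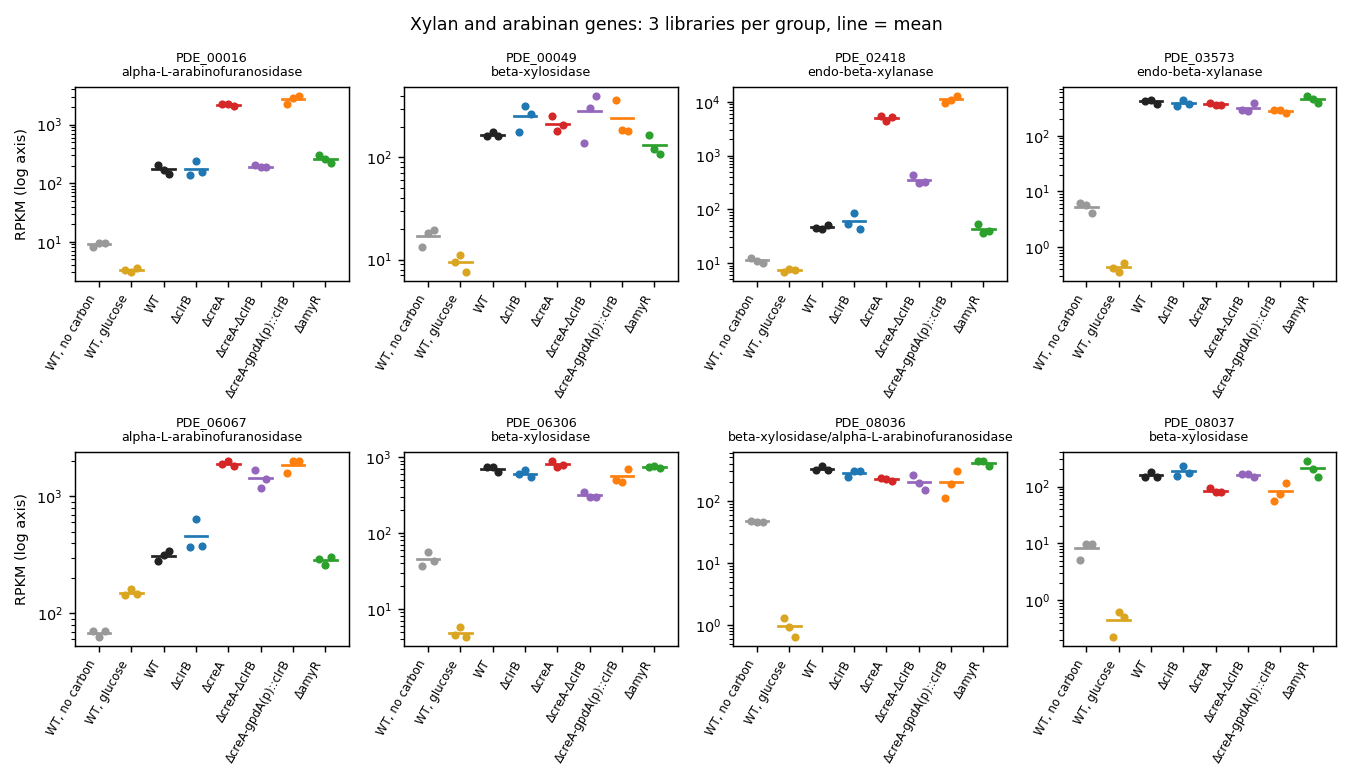
RPKM (log axis) of the 8 xylan and arabinan genes in the 8 groups, with 3 points for the libraries and a line at their mean in each. PDE_02418 and PDE_00016 stand highest in the groups without *creA* that carry *clrB*, and PDE_06067 stays high in Δ*creA*-Δ*clrB* at a mean of 1426 RPKM.

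Of the pentose genes 4 of the 6 on the fixed list were among the 57, and 1 of these 4 was called lower in Δ*creA*-Δ*clrB*, against 7.68% of all genes, with a median log2 fold change of -0.78, against 0.02. Both list genes outside the 57 were called lower, with a median of -1.34. PDE_00398, annotated as L-iditol dehydrogenase, an enzyme that oxidises sugar alcohols, had 60.8, 53.4 and 47.6 RPKM in Δ*creA* and 23.5, 23.6 and 24.7 in Δ*creA*-Δ*clrB* and was the 1 called lower (log2 fold change -1.19 ± 0.19, edgeR adjusted p = 6.96e-05). The xylulokinase PDE_09158, which phosphorylates D-xylulose, had 118, 97.05 and 109 RPKM in Δ*creA* and 59.9, 53.1 and 74.8 in Δ*creA*-Δ*clrB*. It was lower in all 3 double-deletion libraries but short of the fold limit (log2 fold change -0.80 ± 0.13, edgeR adjusted p = 8.68e-05). The D-xylulose reductase PDE_05826, which makes D-xylulose from xylitol, had 237, 204 and 222 RPKM in Δ*creA* and 86.9, 133 and 177 in Δ*creA*-Δ*clrB*, also below in all 3 (log2 fold change -0.77 ± 0.23, edgeR adjusted p = 0.0133), and without the third Δ*creA*-Δ*clrB* library it would have been called (adjusted p = 0.00347 by edgeR). The aldose epimerase PDE_01540, which interconverts the anomers of sugars, had 305, 289 and 268 RPKM in Δ*creA* and 309.7, 212 and 202 in Δ*creA*-Δ*clrB* with overlapping libraries. The invertase PDE_01041, which splits sucrose, went from 31.1, 25.7 and 26.1 to 8.40, 5.23 and 9.11 RPKM and was called lower (log2 fold change -1.87 ± 0.23, edgeR adjusted p = 3.45e-06). None of these 5 genes was called in Δ*creA-gpdA*(p)::*clrB* by edgeR.

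The 3 transporters differed from each other. The sugar transporter PDE_03571 had 0.917, 1.22 and 1.23 RPKM on glucose, 1404, 1705 and 1833 on cellulose in wild-type and 1172, 1541 and 1430.4 in Δ*clrB*. Without *creA* the libraries gave 1266, 1280.0 and 1162 RPKM, those of the double deletion 1202, 669 and 1156 and those with constitutive *clrB* 976, 1164 and 1189. The libraries of Δ*creA* and Δ*creA*-Δ*clrB* overlapped (log2 fold change -0.31 ± 0.22, edgeR adjusted p = 0.294), so no loss with *clrB* was detected for the gene with the highest induction ratios. Its neighbours in the numbering are the xylanase PDE_03573 and the α-glucuronidase PDE_03572, which removes glucuronic acid side chains from xylan. PDE_03572 is not among the 57 because its Δ*clrB* mean was 0.745 times wild-type, and it fell in Δ*creA*-Δ*clrB* from a mean of 64.7 to 28.7 RPKM (log2 fold change -1.19 ± 0.16). PDE_03311, with a transmembrane transporter term, had 283, 312 and 277 RPKM in Δ*creA* and 428, 608 and 455 in Δ*creA-gpdA*(p)::*clrB*, and was 1 of the 2 genes called higher there (log2 fold change 1.06 ± 0.22, edgeR adjusted p = 0.00161). That call rests on the scale, as the log2 fold change was 0.77 with library totals, and on the second Δ*creA-gpdA*(p)::*clrB* library, without which it was 0.84. In Δ*creA*-Δ*clrB* it had 242, 198 and 276 RPKM and did not pass.

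PDE_00594, with a transporter term, moved the other way, from 33.8, 59.3 and 38.5 RPKM in Δ*creA* to 249, 185 and 249 in Δ*creA*-Δ*clrB*, with no overlap (log2 fold change 2.35 ± 0.55, edgeR adjusted p = 0.00200). It is listed near PDE_00592, a hypothetical protein that went from 9.11, 15.2 and 11.4 to 44.97, 46.5 and 47.5 RPKM (log2 fold change 1.93 ± 0.27, edgeR adjusted p = 1.41e-05). PDE_00592 fell in Δ*creA-gpdA*(p)::*clrB* to 3.38, 3.29 and 1.49 RPKM (log2 fold change -1.85 ± 0.30, edgeR adjusted p = 2.37e-04), while PDE_00594 did not pass there, at 59.8, 65.5 and 17.3 RPKM.

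**Figure D4:**
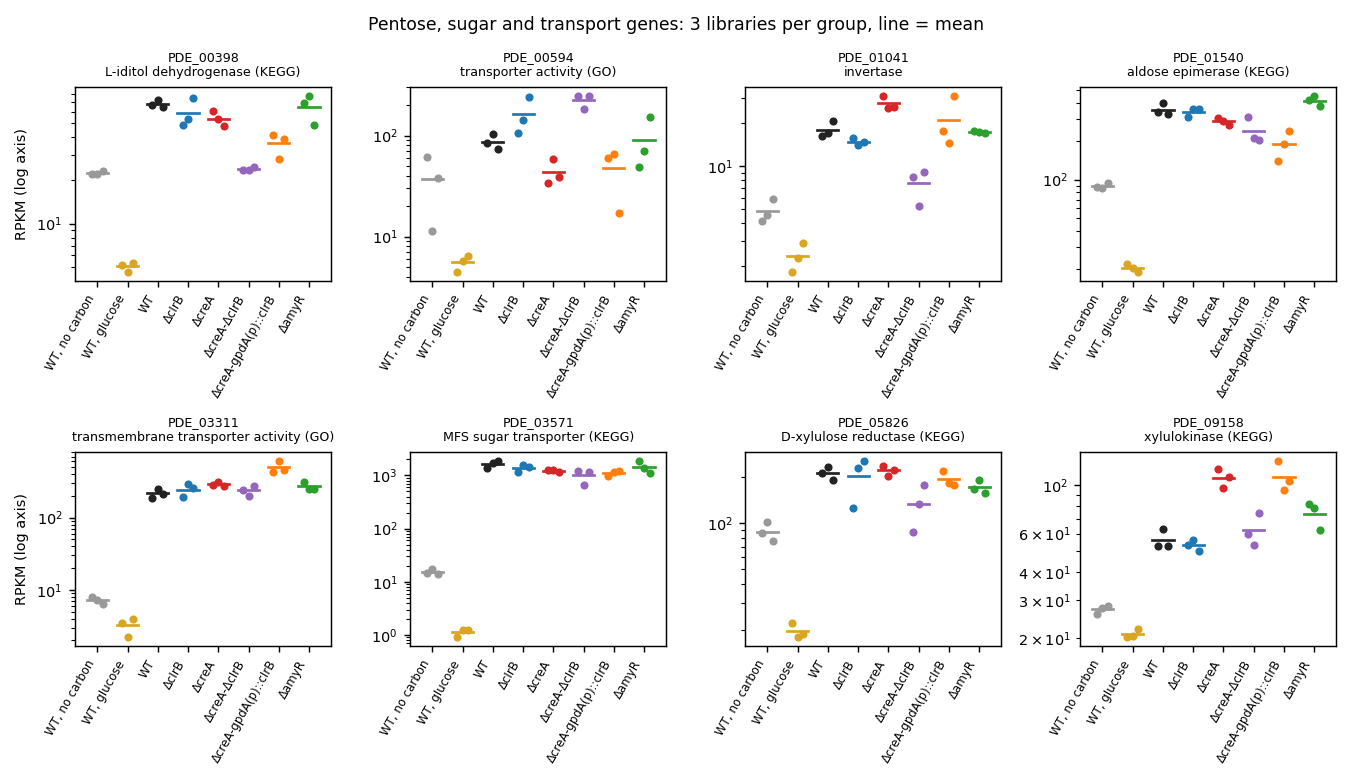
RPKM (log axis) of the 5 pentose and sugar genes and the 3 transporter genes in the 8 groups, with 3 points for the libraries and a line at their mean in each. PDE_03571 is high in every cellulose group, with a lowest group mean of 1009 RPKM, and PDE_00594 is highest in Δ*creA*-Δ*clrB* at 227 RPKM.

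Several genes for the use of aromatic compounds fell in Δ*creA-gpdA*(p)::*clrB*. These enzymes open or modify phenolic rings: salicylate hydroxylases turn salicylate into catechol, catechol dioxygenase opens the catechol ring, and dihydroxybenzoate decarboxylase makes catechol from a dihydroxybenzoate. Of the 8 genes on the fixed list 4 were among the 57, and 3 of these 4 were called lower in each comparison with Δ*creA*: PDE_02118, PDE_05239 and PDE_07956 in Δ*creA*-Δ*clrB*, and PDE_02215, PDE_05239 and PDE_07956 in Δ*creA-gpdA*(p)::*clrB*. Of all genes 7.68% and 4.12% were lower in these comparisons. The median log2 fold change of the 4 was -1.54 in Δ*creA*-Δ*clrB*, against 0.02 for all genes, and -2.42 in Δ*creA-gpdA*(p)::*clrB*, against 0.006. Of the 4 list genes outside the 57, 2 were lower in the former and 1 in the latter. The salicylate hydroxylase PDE_07956 had 14.1, 18.2 and 18.1 RPKM in Δ*creA*, 5.13, 1.64 and 2.38 in the double deletion and 0.611, 0.694 and 0.631 in Δ*creA-gpdA*(p)::*clrB*, where only 22 reads fell on it over 3 libraries. On glucose it had 0.547, 0.779 and 0.823 RPKM. It fell in Δ*creA-gpdA*(p)::*clrB* (log2 fold change -4.40 ± 0.998, edgeR adjusted p = 0.00375). Its fall in Δ*creA*-Δ*clrB* (log2 fold change -2.46 ± 0.81, edgeR adjusted p = 0.0198) was lost without the second or the third double-deletion library, with adjusted p of 0.0841 and 0.0667 by edgeR.

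The catechol dioxygenase PDE_05239 had 82.7, 104 and 98.1 RPKM in Δ*creA*, 42.5, 28.01 and 29.2 in the double deletion (log2 fold change -1.53 ± 0.44, edgeR adjusted p = 0.00906) and 9.85, 14.7 and 14 in Δ*creA-gpdA*(p)::*clrB* (log2 fold change -2.60 ± 0.47, edgeR adjusted p = 5.73e-04). The 3 groups did not overlap. The dihydroxybenzoate decarboxylase PDE_02215 had 159, 239 and 186 RPKM in Δ*creA*, 157, 81.5 and 93.4 in the double deletion and 32.8, 40.3 and 28.9 with constitutive *clrB*. It passed in Δ*creA-gpdA*(p)::*clrB* (-2.24 ± 0.53) but not in Δ*creA*-Δ*clrB* (-0.83 ± 0.51). The other salicylate hydroxylase, PDE_02118, had 124, 96.5 and 127 RPKM in Δ*creA* and 45.2, 25.3 and 47.7 in Δ*creA*-Δ*clrB*, where it fell (log2 fold change -1.56 ± 0.30, edgeR adjusted p = 3.83e-04). In Δ*creA-gpdA*(p)::*clrB* its 72.04, 44 and 102 RPKM overlapped Δ*creA*.

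PDE_07956, PDE_05239, PDE_02215 and PDE_01370, annotated as tryptophan synthase beta chain, were the 4 of the 57 genes that differed most between the wild-type cultures on cellulose. In wild-type on cellulose PDE_07956 had 124, 8.62 and 35.8 RPKM, PDE_05239 had 195, 43.5 and 91.5, PDE_02215 had 608, 108 and 224 and PDE_01370 had 37, 4.63 and 11.8. All 4 genes were highest in the first library and lowest in the second, with ratios of 14.4, 4.48, 5.65 and 7.99. The same libraries were highest and lowest for all 4 genes in wild-type without carbon. Without the first wild-type library on cellulose, at least PDE_01370, PDE_02215 and PDE_07956 missed a limit of the rule. The mean of PDE_01370 was then under 10 RPKM, and those of PDE_02215 and PDE_07956 were under 2 times their means without carbon. Their place among the 57 genes thus rests on that cellulose library. In Δ*clrB* the third library was highest and the first lowest for all 4, with PDE_07956 at 111, 189 and 397 RPKM. All 4 also shared their order in the tested libraries. The second Δ*creA* library was highest and the first lowest, and the first Δ*creA*-Δ*clrB* library was highest and the second lowest. The calls of these 4 genes therefore cannot be taken as independent of each other. Libraries of Δ*clrB* and wild-type on cellulose overlapped for PDE_05239, PDE_02215, PDE_07956 and PDE_01370. PDE_01370 had 15.04, 25.6 and 18.6 RPKM in Δ*creA* and 10.04, 2.62 and 3.73 in Δ*creA*-Δ*clrB*, a fall (-1.86 ± 0.62) that was not called without the second or the third Δ*creA*-Δ*clrB* library or the second Δ*creA* library (adjusted p from 0.0780 to 0.0976 by edgeR). It also fell to 3.61, 3.11 and 2.84 RPKM in Δ*creA-gpdA*(p)::*clrB* (log2 fold change -2.36 ± 0.65, edgeR adjusted p = 0.0136), with an adjusted p of 0.0522 without the second Δ*creA* library.

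The 3 neighbouring genes PDE_01716, PDE_01717 and PDE_01718 carry terms that name an acetyl-CoA synthetase, a trichodiene synthase and a farnesyl diphosphate synthase. Farnesyl diphosphate is the precursor that sesquiterpene synthases such as trichodiene synthase cyclise. All 3 fell in Δ*creA-gpdA*(p)::*clrB*. PDE_01716 went from 25.6, 19.01 and 20.4 RPKM in Δ*creA* to 5.25, 1.01 and 3.95 (log2 fold change -2.41 ± 0.39, edgeR adjusted p = 2.40e-04), PDE_01717 from 70.3, 48.9 and 49.7 to 29.4, 11.6 and 12.9 (log2 fold change -1.38 ± 0.42, edgeR adjusted p = 0.0255) and PDE_01718 from 36.6, 23.96 and 26.1 to 9.24, 2.72 and 4.24 (log2 fold change -2.15 ± 0.37, edgeR adjusted p = 4.62e-04). The second Δ*creA-gpdA*(p)::*clrB* library was the lowest for each of them, and without it the adjusted p of PDE_01717 was 0.116 by edgeR. The call of PDE_01717 was also lost without the third such library (0.0726), without the first Δ*creA* library (0.0986) and in a fit of those groups alone (0.0503). In Δ*creA*-Δ*clrB* PDE_01718 alone of the 3 was called lower, at 9.38, 5.91 and 14.3 RPKM (log2 fold change -1.56 ± 0.36, edgeR adjusted p = 0.00171). PDE_01717 had 33.2, 47.6 and 77.02 RPKM there, overlapping Δ*creA*.

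**Figure D5:**
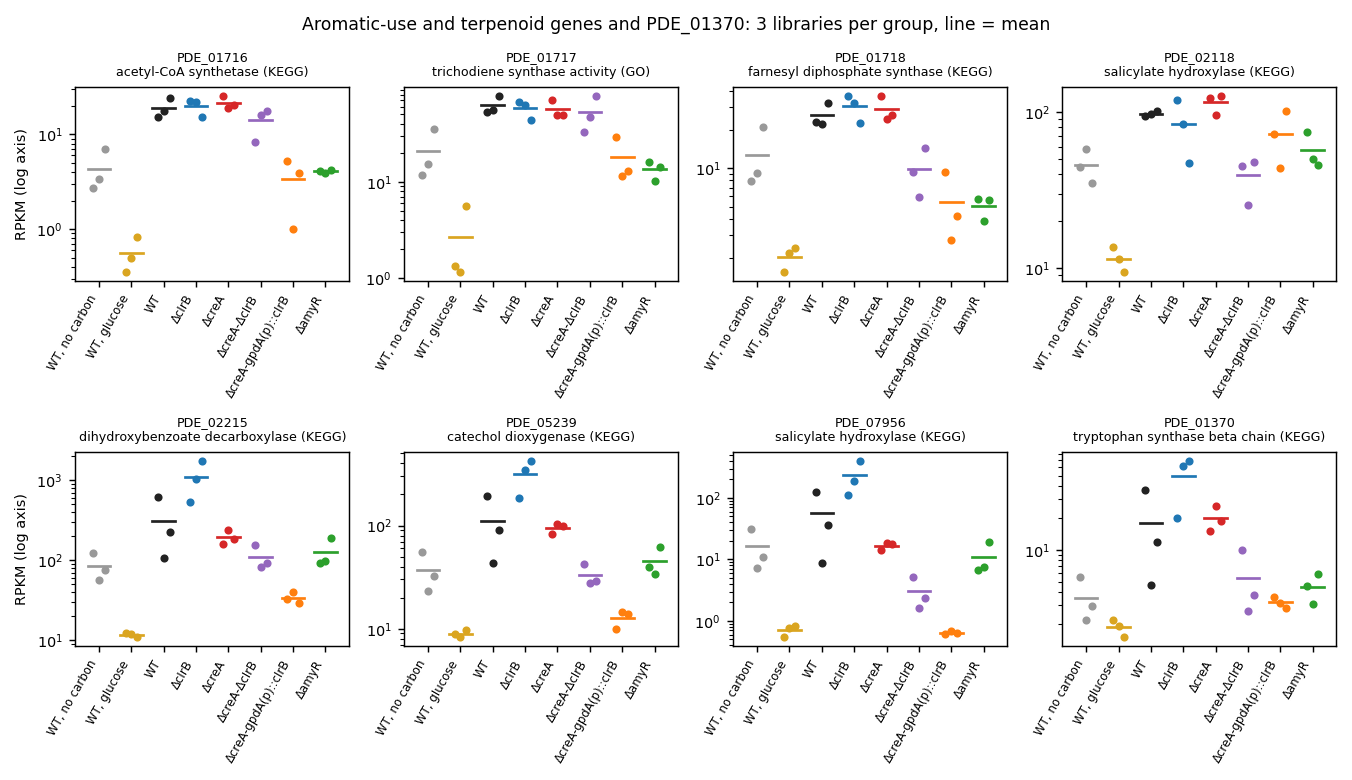
RPKM (log axis) of the 4 aromatic-use genes, the neighbours PDE_01716, PDE_01717 and PDE_01718, and PDE_01370 in the 8 groups. Each group has 3 points for the libraries and a line at their mean. In the group with constitutive *clrB* all but PDE_02118 lie wholly below Δ*creA*, and PDE_07956 has a mean of 0.645 RPKM there.

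The genes that rose in Δ*creA*-Δ*clrB* were mostly hypothetical proteins. PDE_06415 went from 59.3, 124 and 65.8 RPKM in Δ*creA* to 528, 395 and 355 (log2 fold change 2.33 ± 0.69, edgeR adjusted p = 0.0109) and PDE_05892 from 142, 268 and 126 to 751, 906 and 743 (log2 fold change 2.13 ± 0.56, edgeR adjusted p = 0.00504). PDE_02855 went from 40.3, 71.9 and 38.4 to 129, 140.3 and 159 RPKM (log2 fold change 1.47 ± 0.45, edgeR adjusted p = 0.0131). The second Δ*creA* library was the highest of its group for PDE_00594, PDE_02855, PDE_05892 and PDE_06415, and these 4 genes shared their highest library in wild-type without carbon (the first), in Δ*clrB* (the third), under constitutive *clrB* (the second) and in Δ*amyR* (the third). Without the first Δ*creA* library PDE_06415 had an adjusted p of 0.0524 and PDE_02855 of 0.0603, and PDE_02855 had 0.0637 without the third, all by edgeR. PDE_00144 was just past the fold limit (1.05 ± 0.33) and fell short of a call without the first double-deletion or the third Δ*creA* library. PDE_09767 and PDE_09745 were called (1.12 ± 0.42 and 1.06 ± 0.40), but their libraries overlapped between the strains on counts scaled by TMM, those of PDE_09745 on that scale only. PDE_09767 had 98.4, 351 and 648 RPKM in Δ*creA*-Δ*clrB* against 181, 153 and 157 in Δ*creA*, and without the third double-deletion library its log2 fold change was 0.44. PDE_09745 had 50.95, 42.1 and 31.2 against 16.01, 28.9 and 13.8 RPKM, and its adjusted p reached 0.162 without the third Δ*creA* library. Without the first Δ*creA* library 4 of the 8 higher calls were left, and without the third also 4.

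Among the other genes lower in Δ*creA*-Δ*clrB*, PDE_06770, not annotated in the sources used, went from 101, 94.7 and 92.05 RPKM in Δ*creA* to 5.91, 4.52 and 6.10 (log2 fold change -4.13 ± 0.21, edgeR adjusted p = 1.30e-11), against 16.1, 10.9 and 14.1 in wild-type on cellulose. PDE_03768, a hypothetical protein, went from 204, 106 and 185 to 35.3, 23.2 and 36.7 RPKM (log2 fold change -2.38 ± 0.33, edgeR adjusted p = 1.58e-05), and PDE_01632, a hypothetical protein whose coding length of 150 bases was the shortest of the 57, from 717, 462 and 660.5 to 108, 104 and 184 (log2 fold change -2.23 ± 0.27, edgeR adjusted p = 3.07e-06). After TMM the double-deletion libraries lay below all wild-type libraries on cellulose for PDE_06770 (log2 difference -0.86) and overlapped them for PDE_03768 (-0.16) and PDE_01632 (-0.37). PDE_07936, with a metalloendopeptidase term, was the most abundant of the 57 genes in wild-type on cellulose and also among the most variable, with 3588, 1368 and 2216 RPKM there and 7131, 666 and 1680.3 in Δ*clrB*. It had 2750.4, 1657 and 2749 RPKM in Δ*creA* and 693, 1043 and 844 in Δ*creA*-Δ*clrB*. That fall (log2 fold change -1.48 ± 0.55, edgeR adjusted p = 0.0383) was not called by limma or without any 1 of 5 of the 6 libraries, with adjusted p of 0.052 to 0.093.

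The other lower calls in Δ*creA*-Δ*clrB* were those of 6 hypothetical or unannotated genes with log2 fold changes from -1.66 for PDE_07838 to -1.17 for PDE_07379: PDE_07838, PDE_02264, PDE_00665, PDE_02252, PDE_05782 and PDE_07379. The calls of PDE_02264 and PDE_00665 were lost without the second Δ*creA* library (adjusted p = 0.128 and 0.0576 by edgeR), and that of PDE_02264 also without the first or second double-deletion library. PDE_00665 fell further in Δ*creA-gpdA*(p)::*clrB*, from 14.8, 21.96 and 17.7 RPKM in Δ*creA* to 1.48, 4.76 and 1.14 (log2 fold change -2.58 ± 0.49, edgeR adjusted p = 9.68e-04). PDE_03776, with a calcium ion binding term, had 50.8, 82.8 and 43.5 RPKM in Δ*creA*, 107, 80.4 and 45.1 in the double deletion and 12.9, 13.6 and 7.05 in Δ*creA-gpdA*(p)::*clrB*, where it fell (log2 fold change -2.13 ± 0.48, edgeR adjusted p = 0.00354) without overlap. The hypothetical gene PDE_09315 went from 11.1, 14.7 and 10.9 to 2.13, 2.74 and 0.877 RPKM in that strain (log2 fold change -2.38 ± 0.57, edgeR adjusted p = 0.00583), and its 14.3, 19.4 and 12.5 RPKM in Δ*creA*-Δ*clrB* overlapped Δ*creA*.

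Several abundant or well-induced genes passed in neither comparison. PDE_02125 and PDE_02123, hypothetical genes with 1 locus number between them, were both abundant. In wild-type on cellulose PDE_02125 had 1093, 953 and 908 RPKM and PDE_02123 had 406, 463 and 395. Both were lower in all 3 Δ*creA*-Δ*clrB* libraries than in Δ*creA*, with log2 fold changes of -0.87 and -0.73, inside the fold limit. PDE_05476, with a term for molybdenum cofactor sulfurtransferase, an enzyme that activates molybdenum hydroxylases, had 463, 505 and 532 RPKM in wild-type on cellulose and 286, 116 and 143 in Δ*creA*-Δ*clrB* against 313, 189 and 288 in Δ*creA*. It passed the limits without the first double-deletion library (adjusted p = 0.00710 by edgeR). In Δ*creA-gpdA*(p)::*clrB* it was called lower with library totals or with limma. PDE_08034 lies beside the β-xylosidases PDE_08036 and PDE_08037 in the numbering and had 57.4, 55.8 and 49.3 RPKM in Δ*creA* and 51.4, 40.8 and 42.2 in Δ*creA*-Δ*clrB*. The exo-arabinanase PDE_08038, which met every limit but was left out by name, had means of 523 and 592 RPKM in those strains and passed in neither comparison either, so that none of these 4 genes was called. PDE_08035, between them, is not among the 57 because its Δ*clrB* mean was 0.669 times wild-type, and it too did not pass, at 693 and 975 RPKM.

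Of the genes left, PDE_03020, PDE_03988, PDE_05713, PDE_06972, PDE_07136, PDE_07173, PDE_07566, PDE_07672 and PDE_09178 passed in neither comparison, with log2 fold changes in Δ*creA*-Δ*clrB* from -0.86 for PDE_07672, an aminopeptidase by its term, to 0.79 for PDE_03988. PDE_05713 was the most even of the 57 genes between Δ*clrB* cultures, with 407, 410.2 and 413 RPKM, and had 262, 238 and 235 in Δ*creA* and 205, 139.6 and 117 in Δ*creA*-Δ*clrB*. PDE_03020, with a metal ion binding term, sat at the fold limit in Δ*creA-gpdA*(p)::*clrB* (log2 fold change -0.99 ± 0.30, edgeR adjusted p = 0.0250) and was called lower with DESeq2, median-ratio scaling or library totals. Together the 57 genes took 1.56% ± 0.11 of reads on genes in wild-type on cellulose and 1.81% ± 0.18 in Δ*clrB*, and 2.41% ± 0.13 in Δ*creA*, 1.32% ± 0.13 in the double deletion and 2.90% ± 0.31 under constitutive *clrB* (SD, n = 3), with 0.0822% ± 0.0046 on glucose. The rise over Δ*creA* under constitutive *clrB* lay in PDE_02418, which took 0.493% ± 0.051 of reads in Δ*creA* and 1.11% ± 0.17 with constitutive *clrB*. The other 56 genes took 1.91% ± 0.088 and 1.79% ± 0.16.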

How the data were processed

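The authors mapped Illumina reads with SOAP2 to predicted transcripts of strain 114-2, and the sources used here name no version for it. Base calling is listed as CASAVA 1.8. The deposited table gives, per gene and library, the count of uniquely mapped reads, the RPKM made by the authors with the library's total reads on genes as base, and the percent of gene length covered by reads, which was not used. A dash was read as 0 reads, and 0 per-sample columns were left unassigned. Strand was not given in the sources used here, so overlapping and antisense genes cannot be told apart. The authors' lists of changed genes were read for annotation terms only.

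The members and lists were chosen with earlier results of these data known. Genes were kept where 3 or more libraries reached 1 RPKM, 9176 in all, and their counts were scaled by TMM and fitted in edgeR 4.0.16 (R 4.3.3) by the quasi-likelihood method with 8 group means over 24 libraries, with Benjamini-Hochberg adjustment over all genes (biological coefficient of variation 19.9%). The fit was tested on simulated data. Errors of fold changes are SE with 3 libraries per group. Tables were prepared with Python 3.11.15 and pandas 2.3.3. Genes were named by a rule: members of the xylan, pentose and aromatic lists, with a transporter or sugar term, among the 5 largest changes each way in each comparison without overlap, among the 5 most abundant in wild-type on cellulose, at a limit, or next to another member. Other members were named after their values were seen. Alternatives were DESeq2 1.42.0, limma 3.58.1 on log2(RPKM + 1) and log2(RPKM + 0.1), median-ratio and total scaling, no filter, a fit of the groups compared alone, replicate number as a block, and each library left out. The replicates are labelled as replicates of a group only, so p-values measure the spread between these cultures. Genomic sequence and coordinates were not analysed here.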

Additional observations from a re-analysis of the deposited data

Results flagged for a closer look

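For 6 of the 57 genes (10.5%), on counts scaled by TMM, the 3 Δ*clrB* libraries lay above the 3 wild-type libraries on cellulose, and the 3 Δ*creA*-Δ*clrB* libraries lay below the 3 Δ*creA* libraries, so that deleting *clrB* went with opposite directions in the backgrounds with and without *creA*. The same pattern was found in 1.53% of all genes tested. On the RPKM scale 4 of the 57 genes (7.02%) showed it, against 0.599% of all genes, as the Δ*clrB* and wild-type libraries of PDE_02418 and PDE_05713 overlapped there. The choice of genes kept out those that fell in Δ*clrB*, so nothing is read from these shares, and the difference between the backgrounds was not tested. The log2 difference with and without *clrB* was 0.58 in the wild-type background and -3.82 in the Δ*creA* background for PDE_02418, an endo-β-xylanase. It was 0.32 and -1.66 for PDE_07838, 0.75 and -1.17 for PDE_07379, 0.83 and -0.84 for PDE_07173, 0.23 and -0.67 for PDE_05713, all hypothetical proteins, and 0.75 and -0.43 for the arabinofuranosidase PDE_06067. Of the values in the Δ*creA* background those of PDE_02418, PDE_07838 and PDE_07379 were called by edgeR.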

How the results depend on the processing

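The rule gave 60 genes with medians in place of means, 50 of them among the 57, and 50 to 57 genes without 1 wild-type library on cellulose. Of the 57 genes 44 remained without the first of these libraries, 51 without the second and 54 without the third. The genes lost without the first included PDE_01370, PDE_02215 and PDE_07956. In the double deletion the 21 lower calls became 20 or 21 under every scaling, filter and tool, and 17 to 21 without 1 library. The 8 higher calls became 6 to 8, and 4 to 7 without 1 library. Of these calls 16 of 21 lower and 3 of 8 higher held in every alternative. With constitutive *clrB* the 11 lower calls became 17 with limma on log2(RPKM + 0.1), 16 with limma on log2(RPKM + 1) and 16 with library totals, 10 to 12 under the others, and 10 to 12 without 1 library. The 2 higher calls became 1 with library totals and with both forms of limma, and 1 to 2 without 1 library. Here 9 of 11 lower and 1 of 2 higher calls held in every alternative. Over all genes the calls there were 378 lower and 300 higher in the main fit, 609 and 119 with limma on log2(RPKM + 1), and 878 and 128 on log2(RPKM + 0.1). Deviations of same-numbered libraries had correlations of -0.071, -0.070 and 0.166 for Δ*creA* with Δ*creA*-Δ*clrB*. With Δ*creA-gpdA*(p)::*clrB* they were 0.078, 0.397 and 0.041. Pairs of unlike number ran from -0.265 to 0.210. The 0.397 of the second libraries was the highest of all, so a link between those libraries is not excluded, and its cause was not tested. The other same-numbered pairs lay within the range of unlike pairs. With the replicate number as a block the counts were 21 lower and 7 higher, and 11 lower and 2 higher. In Δ*creA*-Δ*clrB* the direction of 2 uncalled genes turned. PDE_01717 had 0.099 without the first double-deletion library and 0.052 without the first Δ*creA* library, within a range of -0.48 to 0.099 over single libraries left out, and PDE_08036 had 0.024 without the third double-deletion library, within -0.43 to 0.024. The cause was not tested. Values of genes with few reads, such as PDE_07956 with 22 reads over the 3 Δ*creA-gpdA*(p)::*clrB* libraries, are limited by counting error.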
